A study of Mus musculus with 2 samples.

Results

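The genes described here encode the proteins of the cytosolic ribosome of the mouse. Members were the protein-coding genes whose symbol is Rpl or Rps with a number (and at most a closing a, x or l and 1 more digit), Rplp with 1 digit, or Rpsa. The rule found 83 of 21474 protein-coding genes, and of 43346 genes in all. The large subunit supplied 51 members and the small subunit 32. The rule read names and no measured value. RNA came from skeletal muscle of newborn B6NCrl mice (postnatal day 0). Both libraries, 2 in all, were made by a SmartSeq protocol from 13 pg of total RNA each, which the labels equate with 1 cell, taken from tissue of 1 pup per library. The tissue records differ, the donor entry is shared, and sex was not collected. Both form 1 group with no control or treatment, spike-in RNAs were added to both, and the tissue portion still held several cell types. The spread between the 2 libraries can therefore be between animals, tissue portions or amplifications, which cannot be told apart.

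Replicate 1 held 32103374 expected counts and replicate 2 held 38977618. An expected count is the number of reads assigned to a gene by a model, and it need not be whole. Members held 933911 and 751918 of them. Levels are given in TPM, the length-adjusted share of all transcripts in a library, so they can be set against each other between genes. All 8 skeletal muscle markers and all 4 fibroblast markers were detected in both libraries, which fits the labelled tissue. Heart, cartilage and epidermis markers were at or near 0 in both, with summed levels of at most 0.18 TPM. Endothelial markers summed to 233 TPM in replicate 1 and 5.18 TPM in replicate 2.

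Ribosomal proteins coat the ribosomal RNA of each subunit and are mostly present in 1 copy per ribosome. Their mRNAs are short, abundant and, in most cases, begin with a C followed by a run of pyrimidines at the capped end, the TOP motif, through which growth signals control their translation. A few have a partner gene used in particular tissues, such as Rpl3l in striated muscle or Rpl10l and Rpl39l in the testis. Mammalian genomes also carry a large number of processed pseudogenes, copies of ribosomal protein mRNAs that were written back into the genome.

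RefSeq windows of 250 bases before to 50 bases after the annotated start (GRCm38) were at hand for 63 of the 83 members, some with several starts. Windows of 5 members are shown because they place the start in view, 15 bases on each side, 5′ to 3′ on the gene's strand. Capitals mark a C followed by at least 4 pyrimidines that begins within 5 bases of the annotated start. Rpl38 lies at chr11:114668565-114668594 on the plus strand, Rps18 at chr17:33955651-33955680 on the minus strand and Rps27 at chr3:90213634-90213663 on the minus strand. Rpl15 lies at chr14:18270972-18271001 and Rpl41 at chr10:128549154-128549183, both on the minus strand.
Rpl38: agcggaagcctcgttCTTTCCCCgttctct
Rps18: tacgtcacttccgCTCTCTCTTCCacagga
Rps27: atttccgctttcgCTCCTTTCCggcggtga
Rpl15: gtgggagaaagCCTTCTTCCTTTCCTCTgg
Rpl41: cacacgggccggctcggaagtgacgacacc
Such a run lay within 5 bases of the start in 31 of 75 member windows (41.3%), against 18.3% of all 32851 windows in the table and 18.7% of windows of protein-coding genes. Counted by gene, 29 of 63 members (46.0%) had it at 1 or more of their starts, against 21.2% of all 27025 genes. A C at the annotated start itself, with the run behind it, was found in 17.3% of member windows and in 2.51% of all windows. The search read the gene's strand only. Rpl41, the highest of the members, had no such run at its RefSeq start, which says only that these letters are not in this window. Mitochondrial ribosomal proteins had the run near the start in 23.0% of 74 windows and at the start in 0.

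Coding sequences of 2 partner pairs are shown because reads can tell these genes apart. Each line gives the first 90 coding bases from GENCODE, and capitals mark bases that differ within the pair. The coding part of Rpl3 spans chr15:80077850-80083326 (minus strand) and that of Rpl3l chr17:24727884-24736056 (plus strand). Rps27 spans chr3:90212725-90213615 (minus strand) and Rps27l chr9:66946175-66949341 (plus strand).
Rpl3: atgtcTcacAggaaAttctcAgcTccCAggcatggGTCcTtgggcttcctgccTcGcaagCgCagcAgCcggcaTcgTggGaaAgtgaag
Rpl3l: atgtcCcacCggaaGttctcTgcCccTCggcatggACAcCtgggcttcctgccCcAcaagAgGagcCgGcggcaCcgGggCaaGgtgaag
Rps27: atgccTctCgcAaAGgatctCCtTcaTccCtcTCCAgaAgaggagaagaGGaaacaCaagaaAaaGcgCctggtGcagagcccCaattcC
Rps27l: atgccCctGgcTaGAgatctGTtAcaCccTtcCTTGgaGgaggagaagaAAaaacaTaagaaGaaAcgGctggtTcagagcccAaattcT
Rpl3 and Rpl3l were identical at 74.4% of 1208 aligned coding bases, with no identical run longer than 22 bases. Rps27 and Rps27l were identical at 74.9% of 255 bases, with no run longer than 11. Over the 7 partner pairs with a coding sequence in the annotation, identity ranged from 62.6% (Rpl7 and Rpl7l1) to 87.9% (Rpl36a and Rpl36al).

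Processed pseudogenes are the opposite case. The first 90 coding bases of Rpl5, which binds the small rRNA of the large subunit, and of Rps23, which lies at the decoding centre, are printed once each because their leading pseudogene holds the same letters. Rpl5 codes from chr5:107900644-107907996 (plus strand), and its copy Gm15500 is at chr7:114705217-114706235 (minus strand). Rps23 codes from chr13:90923196-90924683 (plus strand), and its copy Rps23-ps1 is at chr3:37714740-37715164 (plus strand).
Rpl5: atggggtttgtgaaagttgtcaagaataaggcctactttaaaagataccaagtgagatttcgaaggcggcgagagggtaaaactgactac
Rps23: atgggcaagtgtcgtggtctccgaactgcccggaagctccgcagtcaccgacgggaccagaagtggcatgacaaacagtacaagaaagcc
All 894 coding bases of Rpl5 occur in Gm15500 without a difference. Of the 432 coding bases of Rps23, the first 425 make up the whole of Rps23-ps1. All 615 coding bases of Rpl15 make up Rpl15-ps3. A read that lies within these stretches has no base that tells gene and copy apart.

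Members made up 6.32% of all TPM in replicate 1 and 3.97% in replicate 2, or 5.15 ± 1.66% (SD, n = 2). As a share of expected counts they were 2.91% and 1.93%, as TPM divides by length and these mRNAs are short. Detection required 5 or more expected counts and a TPM of 1 or more. By this rule 80 of 83 members were detected in both libraries, against 18.2% of all 21474 protein-coding genes. Among genes of a mean TPM of at least 100 the share was 99.0% of 1117, and the 77 members at this level were all detected in both, so detection did not set them apart from other abundant genes. All 32 small subunit genes and 48 of 51 large subunit genes were detected in both. The 3 others, Rpl3l, Rpl10l and Rpl39l, were all partners of a general gene.

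The median member stood at 677 TPM in replicate 1 and 410 TPM in replicate 2. The median protein-coding gene was at 0 in both. A level of at least 100 TPM was reached by 79 members in replicate 1 and by 76 in replicate 2. Members held 21 of the 100 highest places among protein-coding genes in replicate 1 and 6 in replicate 2. Among the 300 highest they held 62 and 40, and among the 1000 highest 78 and 72. Replicate 1 thus had the higher level and the higher ranks.

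**Figure D1:**
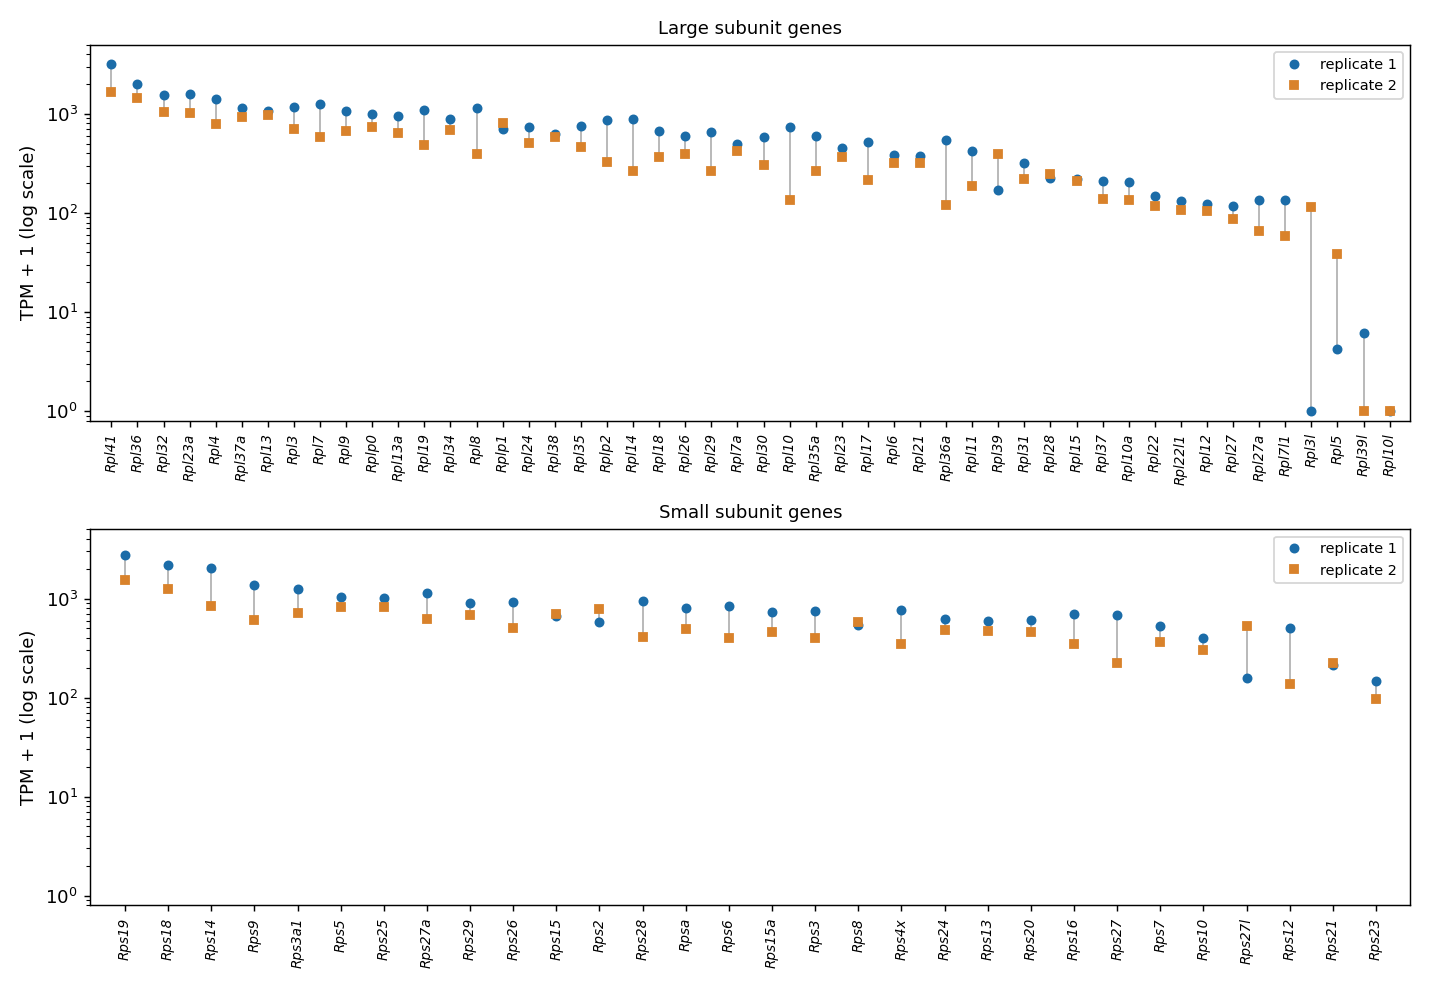
Levels of 80 ribosomal protein genes in TPM + 1 on a log axis, large subunit above and small subunit below, ordered by mean TPM. Circles are replicate 1 and squares replicate 2, joined by a grey line. Most genes lie above 100, and 4 large subunit genes (Rpl3l, Rpl5, Rpl39l, Rpl10l) fall far below the rest in at least 1 library.

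In the large subunit the highest gene was Rpl41, which encodes a very short basic peptide (chr10:128548114-128549305). It stood at 3224 TPM in replicate 1 and 1664 TPM in replicate 2. It was first among all members in both libraries and held 5.10% and 4.19% of their summed TPM. Rpl36 followed at 2005 and 1457 TPM, Rpl32 at 1540 and 1047 TPM, and Rpl23a, beside the exit of the nascent chain, at 1568 and 1016 TPM. Rpl4, which lines the exit tunnel, was at 1422 and 794 TPM and Rpl37a at 1154 and 937 TPM. Each of these 6 was higher in replicate 1.

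In the small subunit Rps19, a protein whose loss causes Diamond-Blackfan anaemia in humans, led with 2727 TPM in replicate 1 and 1552 TPM in replicate 2. Rps18 was at 2172 and 1234 TPM. Rps14 stood at 2039 and 842 TPM. These 3 were the highest small subunit genes in both libraries, and they were among the 7 genes that the lists of 10 highest members shared between libraries. Rps9 was at 984 ± 530 TPM and Rps3a1 at 977 ± 381 TPM (SD, n = 2). Their SDs are wide enough that the order of these 2 genes is not separated.

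At the low end of the small subunit, Rps23 was at 145 and 95.5 TPM and Rps21 at 211 and 223 TPM. Rps12 was at 498 and 135 TPM. Rps27l, a partner gene, was at 156 and 521 TPM. The 95.5 TPM of Rps23 was the lowest value of any small subunit gene in either library. In the large subunit Rpl5 was by far the lowest of the general genes, at 3.25 TPM in replicate 1 and 37.4 TPM in replicate 2. These values rest on 154 and 1440 expected counts, with exact Poisson intervals at 95% of 131 to 180 and 1367 to 1516 counts for counting error alone. Rpl27 was at 116 and 86.1 TPM, Rpl27a at 134 and 65.4 TPM, and Rpl7l1, a relative of Rpl7 that works in ribosome assembly, at 135 and 58.0 TPM. The lists of 10 lowest detected members shared 8 genes between libraries.

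The 3 genes of the P stalk, where elongation factors dock, were not ordered alike in both libraries. Rplp0, the base of the stalk, was at 997 and 730 TPM. Rplp1 was at 708 and 813 TPM and Rplp2 at 857 and 329 TPM. Rplp1 was higher in replicate 2, while Rplp0 and Rplp2 were higher in replicate 1. Rps27a, made as a fusion with ubiquitin, was at 1133 and 625 TPM. The 4 X-linked members also split. Rps4x was at 759 and 344 TPM, Rpl10 at 744 and 135 TPM and Rpl36a at 546 and 121 TPM, each higher in replicate 1. Rpl39 was at 170 and 390 TPM and was higher in replicate 2.

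Large subunit genes had the lower median in each library. The median large subunit gene stood at 601 TPM in replicate 1 and the median small subunit gene at 738 TPM. In replicate 2 the medians were 329 and 499 TPM. The log2 ratio of large to small was -0.30 and -0.60, with a mean of -0.45 ± 0.22 (SD, n = 2), or 1.36-fold more for the small subunit. Both libraries had the same sign, and the mean was just past 2 SD, a description and not a test. The mean TPM per member gave -0.35 ± 0.0066. Without the partner genes the ratio of medians was -0.14 and -0.39, and the mean of -0.27 ± 0.17 no longer passed 2 SD.

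The SD of log2(TPM + 1) over small subunit genes was 0.94 in replicate 1 and 0.82 in replicate 2. Over large subunit genes it was 2.47 and 2.05. Without partner genes it was 1.54 and 1.20 for the large and 0.87 and 0.83 for the small subunit. With matched pseudogene rows, described further on, added as well, it was 0.83 and 0.90 against 0.79 and 0.68. Much of the wide spread of the large subunit thus went with the partner genes and with TPM listed on matched rows. The part of single genes, such as Rpl5, was not computed. For all members it was 1.90 ± 0.24 (SD, n = 2), and without the 6 partner genes among them 1.33 and 1.08. At a mean TPM of at least 100, a choice by level, it was 1.03 ± 0.050 for the 77 members and 1.61 ± 0.0028 for the 1040 other protein-coding genes. The 77 mitochondrial ribosomal proteins, at all levels, had 2.66 ± 0.63. Within 2-fold of the members' median lay 55 of 83 members in replicate 1 and 57 in replicate 2. The 10 highest members held 30.6% and 29.0% of the summed TPM, where equal levels would give 12.0%.

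Many low general genes had more TPM on pseudogene rows than on their own. BLAST matched 785 of 7906 pseudogene rows to a member, at 90% identity or more over at least 50% of the pseudogene's length and 100 bases. This match was chosen after the low levels were seen. Of the matched rows 98 were detected in both libraries. All matched rows together held 14357 TPM in replicate 1 and 10548 TPM in replicate 2, or 22.7% and 26.6% of the TPM of the members themselves. Of the 20 highest matched rows, 16 were identical to the member along the aligned stretch. The rows named after a ribosomal gene with the ending -ps held less, 9.15% and 11.2%, since several of the highest copies have Gm names. Some rows with this ending, such as Rpl10-ps3, Rps12-ps3 and Rpl9-ps6, are annotated as protein-coding, and the match did not search them. Which locus the reads came from was not tested.

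For Rpl5, the pseudogene rows held 363 TPM in replicate 1 and 416 TPM in replicate 2, nearly all on Gm15500. That is 99.1% and 91.8% of the sum of gene and pseudogenes. The sums were 366 and 454 TPM, so the 11.5-fold gap between libraries on the Rpl5 row was not present in the sum. For Rps23 the pseudogene rows held 86.9% and 86.2% of the sum, with Rps23-ps1 alone at 957 and 595 TPM. For Rpl27 they held 89.6% and 88.5%, mostly on Rpl27-ps3 and Gm11518. Rpl15 was at 221 and 210 TPM, while Rpl15-ps3, its copy on chromosome 9, was at 747 and 767 TPM.

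In all, 11 members had more than 50% of the sum on pseudogene rows in both libraries. Among them were Rpl5, Rpl12, Rpl15, Rpl27, Rpl27a, Rpl28, Rpl31, Rpl37, Rps23 and Rps29. Of the 20 lowest members by mean TPM 9 were in this group, and of the 20 highest none. A low gene row raises this share by construction, so the contrast cannot show that pseudogene rows go with low levels. The shares were close in both libraries for most of these genes. Rpl28, for example, had 68.6% and 69.2%, and Rpl15 77.2% and 78.5%. Rps12, which is outside this group, moved more, with 38.1% and 60.7%.

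**Figure D2:**
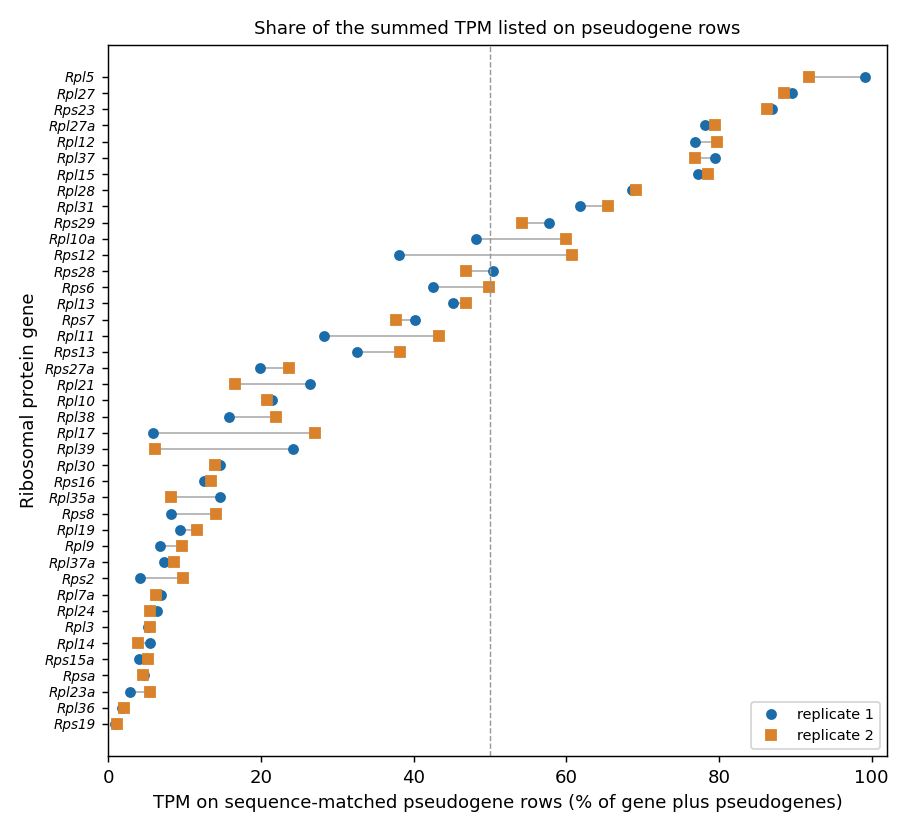
Share of the summed TPM of a gene and its sequence-matched pseudogenes that was listed on the pseudogene rows, in percent, for reported members whose pseudogenes averaged over 20 TPM. Circles are replicate 1 and squares replicate 2, and the dashed line marks 50%. Rpl5 is highest at 99.1% and 91.8%, and 10 of the genes shown lie right of the line in both libraries.

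Adding the matched rows to each member made the general genes more even. Without partner genes, the SD of log2(TPM + 1) was 0.82 in both libraries, down from 1.33 and 1.08. Within 2-fold of the median then lay 61 of 83 members in replicate 1 and 66 in replicate 2. Over all 83 members, partner genes included, large subunit genes stayed the lower of the subunits, with log2 ratios of -0.21 and -0.40. This ratio with matched rows is not given here without partner genes. The medians became 748 TPM for large and 863 TPM for small subunit genes in replicate 1, and 454 and 599 TPM in replicate 2. The deposited posterior SD of the counts, which describes how the model split reads, was 8.13% and 2.38% of the count for Rpl5 and 2.29% and 2.48% for Rps23. For Rps9, which had no matched pseudogene, it was near 0. This SD did not follow the matched rows in every gene. For Rps27, with 0.038% and 0.095% of the sum on matched rows, it was 4.73% and 10.5%.

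**Figure D3:**
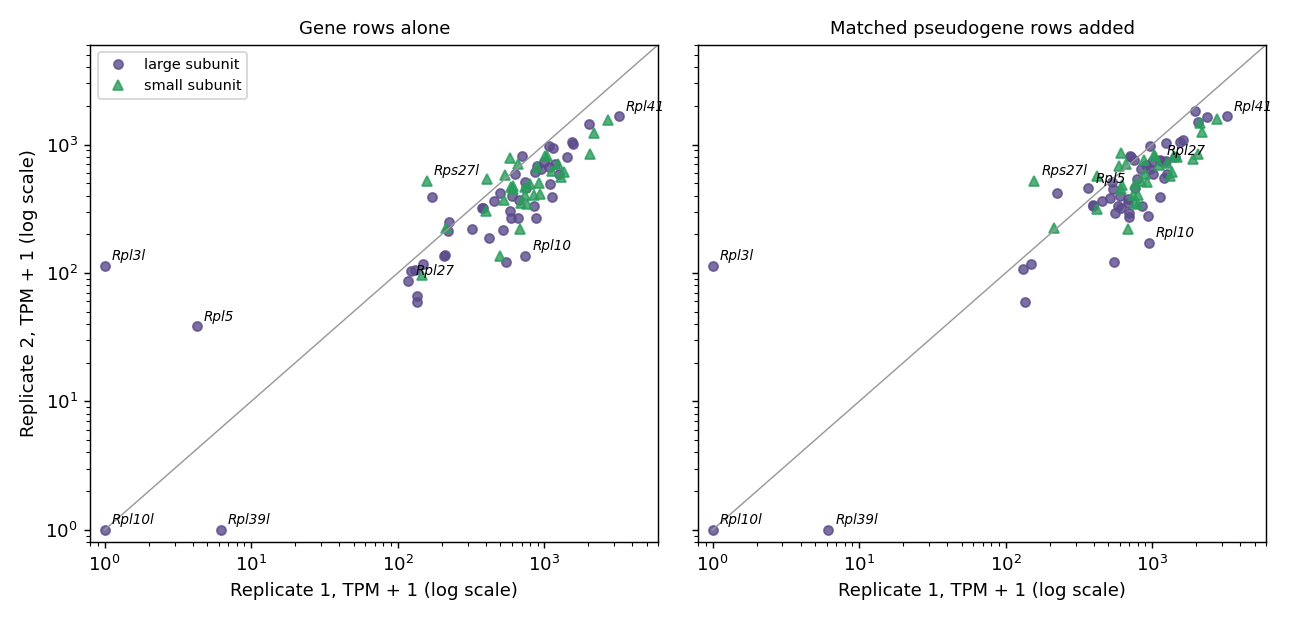
Level of each member in replicate 1 (horizontal) against replicate 2 (vertical), in TPM + 1 on log axes, for the gene rows alone (left) and with matched pseudogene rows added (right). Circles are large and triangles small subunit genes, and the line marks equal values. Rpl5 moves from 3.25 and 37.4 TPM into the main group at 366 and 454 TPM, while Rpl3l, Rpl39l and Rpl10l stay apart.

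Partner genes differed in how they stood to their general gene. Rpl3, the general protein of the peptidyl transferase region (chr15:80077791-80091868), stood at 1182 TPM in replicate 1 and 707 TPM in replicate 2. Rpl3l, its form in adult striated muscle (chr17:24727820-24736143), had 0 counts in replicate 1 and 3613 in replicate 2, or 113 TPM. A count of 0 allows up to 3 counts, here 0.136 TPM, so for counting error alone Rpl3l was at least 828-fold higher in replicate 2. Detection in 1 library only was common. Of 7979 protein-coding genes detected in at least 1 library, 3908 were detected in both. In replicate 2 Rpl3l made up 13.8% of the pair, and in replicate 1 the limit for counting error was 0.0115%. The libraries were far apart here although Rpl3 itself differed by only 1.67-fold.

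Rpl10l had 0 counts in both libraries. Rpl10, a late-joining protein of the large subunit, was 5591-fold and 1302-fold above the limit that a count of 0 allows for Rpl10l. Rpl39l had 57 counts in replicate 1 (5.18 TPM, exact Poisson interval at 95% of 43.2 to 73.9 counts, counting error only). It had 0 in replicate 2, where the limit for counting error was 31.2-fold less. Rpl39, a protein of the exit tunnel, was at 170 and 390 TPM. Both of these testis forms were thus at 0 or far below their general genes in each library.

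Rpl22 and Rpl22l1 were the closest pair. Rpl22 was at 147 and 117 TPM and Rpl22l1 at 130 and 105 TPM. Rpl22l1 made up 46.9% and 47.3% of the pair, with a log2 ratio of -0.16 ± 0.016 (SD, n = 2). Both were low beside the median member, and matched pseudogene rows held next to nothing of either. Rpl7l1 stood in an even ratio to Rpl7 as well, at -3.27 ± 0.073.

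For 2 pairs the order turned between libraries. Rps27 was at 683 and 220 TPM, and Rps27l, known as a target of the tumour suppressor encoded by Trp53, at 156 and 521 TPM. Rps27l was 18.6% of the pair in replicate 1 and 70.3% in replicate 2. Rpl36a was at 546 and 121 TPM and Rpl36al, which the name rule leaves out, at 289 and 375 TPM. Rpl36al was 34.6% and 75.7% of its pair. In both pairs the partner was the higher gene in replicate 2 only. Rps4l, annotated as a pseudogene and not a member, was at 45.5 and 74.5 TPM beside Rps4x.

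**Figure D4:**
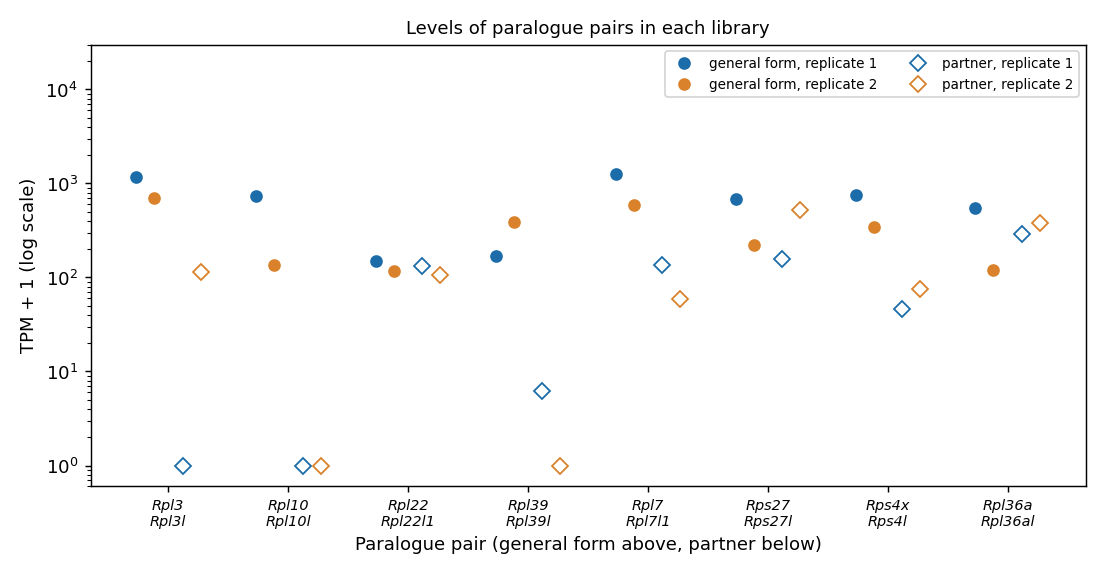
Levels of 8 paralogue pairs in TPM + 1 on a log axis. Filled circles are the general gene and open diamonds the partner, blue for replicate 1 and orange for replicate 2. Rpl22 and Rpl22l1 lie close together, Rps27l and Rpl36al lie above their general gene in replicate 2 only, and Rpl10l is at 0 in both.

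The libraries were then set against each other, 1 against 1 with no replicate check. Log2 ratios of TPM + 1 were centred on the median protein-coding gene with at least 10 counts in both. Of 80 members with that many counts, 70 were higher in replicate 1, with a median of 0.54. Of all 4331 protein-coding genes with that many counts, 2165 were higher in replicate 1, which the centring sets. Of the 1030 such genes outside the members with a mean TPM of at least 100, 438 were. Marker sums moved between the libraries too. The 4 fibroblast markers summed to 5184 TPM in replicate 1 and 3114 TPM in replicate 2, the 8 muscle markers to 98681 and 108176 TPM, and the 3 endothelial markers to 233 and 5.18 TPM. Their part in the members' ratio was not tested. In RNA of a whole tissue, fewer cells of a type and less RNA per cell cannot be told apart. Members over 2-fold higher in replicate 1 numbered 20 of 80, against 24.3% of 4331 protein-coding genes. Members over 2-fold higher in replicate 2 numbered 3, against 25.7%. Among genes of a mean TPM of at least 100 the background was 14.6% and 18.4% of 1107, and of the 77 members at that level 19 and 2 passed. The direction depended on the scale. Spike-ins held 9.44% of TPM in replicate 1 and 4.54% in replicate 2, and centring on them turned the members' median to -0.37, with 2 and 10 members past 2-fold.

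The members' ratios lay close to their median, apart from the few named below. Their SD was 0.77, against 1.25 for the 1030 other genes of a mean TPM of at least 100. Across the 80 members detected in both, log2(TPM + 1) in replicate 1 and 2 had a Pearson r of 0.826 and a Spearman rho of 0.812. For 1029 other genes of a mean TPM of at least 100 these were 0.672 and 0.566. The points of each set share their 2 libraries and the members were chosen by name, the other genes by level. Across the same 80 members TPM and effective length had a Pearson r of -0.32 and -0.24 and a Spearman rho of -0.093 and -0.187 in replicates 1 and 2.

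Among the 80 members with at least 10 counts in both libraries, those furthest toward replicate 1 were Rpl10 (centred log2 ratio of 2.38), Rpl36a (2.10), Rps12 (1.81), Rpl14 (1.66) and Rps27 (1.56). Rpl14 was at 883 and 267 TPM. Among those furthest toward replicate 2 were Rpl5 (-3.24), Rps27l (-1.80), Rpl39 (-1.26) and Rps2 (-0.49). Rps2 was at 582 and 779 TPM. Of these 80 members only Rpl5, Rps27l and Rpl39 were over 2-fold higher in replicate 2. Rpl3l, with 0 and 3613 counts, and Rpl39l, with 57 and 0, fall outside this ranking. With matched pseudogene rows added, Rpl10 stood at 948 and 171 TPM. That sum leaves out Rpl10-ps3, a row annotated as protein-coding, which held 172 and 118 TPM.

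Most members had the same leading transcript in both libraries. Of 80 detected in both libraries, 72 had the same leading transcript in both, and in 45 it held over 90% of the gene's TPM in both. These counts include members with only 1 listed transcript, 21 in all, for which both results are fixed by the annotation. Transcripts annotated as protein-coding held 91.5% and 90.9% of the members' TPM. The rest includes transcripts without a type in the annotation used, such as several of Rpl13a. A second transcript reached 10% in both libraries in 18 members. Rps14 split 55.1% and 56.9% on one coding transcript and 44.5% and 42.9% on another. Rps19 gave 27.3% and 25.4% of its TPM to transcripts annotated as intron retaining. Rps20 was led by such a transcript, with 93.3% and 93.1%. Rpl12 was led by a transcript annotated for nonsense-mediated decay, with 74.3% and 53.2% of the TPM on the gene row. Matched pseudogene rows held 76.9% and 79.8% of the sum for Rpl12, and their part in this lead was not tested. Rpl29 had a different lead in each library, with 26.3% of its TPM on one coding transcript in replicate 1 and 74.2% on it in replicate 2.

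Ribosomal genes named here that the name rule leaves out lay below the members' median in both libraries. Rack1, a signalling scaffold on the small subunit, was at 389 and 388 TPM. Fau, a ubiquitin-like fusion with a small subunit protein, was at 531 and 147 TPM. Fau was among the genes more than 2-fold higher in replicate 1, while Rack1 had nearly the same TPM in both libraries.

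Other parts of the translation machinery had lower medians. Of 16 TOP mRNAs outside the ribosome 15 were detected in both libraries. The share was 18.2% over all protein-coding genes and 99.0% over the 1117 of a mean TPM of at least 100. The medians of the TOP list were 263 and 159 TPM. Eef1a1, the elongation factor that brings aminoacyl-tRNA, led at 5114 and 2658 TPM, followed by Tpt1 at 885 and 787 TPM and Eef1b2 at 958 and 552 TPM. The median centred log2 ratio of this list was 0.57, beside 0.54 for the members and -0.18 for other genes of a mean TPM of at least 100. In it 2 of 16 genes were over 2-fold higher in each direction, against 24.3% and 25.7% of 4331 protein-coding genes.

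Mitochondrial ribosomal proteins build the ribosome of another compartment from nuclear genes. Of 77 genes 50 were detected in both libraries, 54 in replicate 1 and 70 in replicate 2. Over all protein-coding genes 18.2% were detected in both, and over the 3120 of a mean TPM of at least 30 it was 85.3%. The medians of the mitochondrial list were 43.7 and 64.9 TPM, and its median centred log2 ratio was -0.09. Past 2-fold were 9 of 52 toward replicate 1 and 13 toward replicate 2, against 24.3% and 25.7% of 4331 protein-coding genes. The highest were Mrpl42 at 531 and 971 TPM and Mrpl30 at 193 and 465 TPM. Whether their median ratio differs from that of the members was not tested.

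Ribosome biogenesis factors were low. Of 25 genes 11 were detected in both libraries, against 18.2% of all protein-coding genes, with medians of 22.5 and 13.7 TPM. Npm1, a nucleolar chaperone that is also on the TOP list, was highest at 353 and 234 TPM. Nop56, a core protein of the snoRNPs that methylate rRNA, was at 242 and 100 TPM. Eif6, which keeps new large subunits from joining too early, was at 56.4 and 194 TPM. With at least 10 counts in both were 13 genes, of which 5 were over 2-fold higher in replicate 1 and 4 in replicate 2. Over 4331 protein-coding genes these shares were 24.3% and 25.7%.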

How the data were processed

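The authors deposited, for each of 2 libraries, a gene and a transcript table. Per the file headers these hold expected counts, TPM, posterior means with their SD and, for transcripts, the percent of a gene's TPM on each. Expected counts were deposited by the authors without normalization. TPM values were scaled by the authors to a fixed sum over all rows, spike-ins included. Per the labels the assembly was mm10. The aligner and whether reads were counted by strand were both not given in the sources used here.

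Symbols, gene types and positions came from GENCODE M21 (GRCm38), matched by identifier. Log values used a pseudocount of 1. With 2 libraries of 1 group no test was run: values are given per library or as mean ± SD, and a ratio was set against 2 SD. There are no molecular identifiers, and limits for a count of 0 (3 counts) cover counting error only. Named genes were the 6 highest and the 4 lowest detected members of each subunit, members not detected in a library, paralogue pairs, the 5 largest ratios each way, the P stalk, Rps27a, X-linked genes and the 2 to 4 highest of each list. Other members named for their transcripts or pseudogenes were chosen after their values were seen. A few genes that this rule names are not reported here. Members and lists were chosen with earlier results of these data known.

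Pseudogene transcripts were matched to members with BLAST 2.17.0 and coding sequences aligned with Biopython 1.88. edgeR 4.0.16 served only for TMM scaling. Other steps used Python 3.11.15, pandas 2.3.3 and numpy 2.4.6. The ratio and spread calculations were tested on simulated data. Alternatives covered the pseudocount, filters, centring, the TPM estimate, length, the members included and each library left out.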

Additional observations from a re-analysis of the deposited data

How the results depend on the processing

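Under alternatives other than leaving out a library, 39 of 47 recomputed values kept their direction and moved by less than the spread between libraries, or by no more than 1.5 times for a count. The median log2 ratio between libraries has no such spread, and a fixed tolerance of 0.1 was used for it. The share of members was 2.42% of expected counts in place of 5.15% of TPM, which divides by length. The SD of log2(TPM + 1) became 2.31 with a pseudocount of 0.1, 1.25 over members detected in both libraries and 1.21 without partner genes. Centring on spike-ins turned the median ratio between libraries from 0.54 to -0.37 and the members past 2-fold from 20 and 3 to 2 and 10; the cause was not tested. With a pseudocount of 0.1 the log2 ratio of Rpl10l to Rpl10, where Rpl10l is at 0, was -11.63. Leaving out each library, which with 2 libraries leaves the other's value and says nothing on stability, gave shares from 3.97% to 6.32%, large to small ratios from -0.60 to -0.30 and SDs from 1.73 to 2.07. It turned the log2 ratio of Rps27l to Rps27 between -2.12 and 1.24, and that of Rpl36al to Rpl36a between -0.92 and 1.63. Adding sequence-matched pseudogenes, an alternative chosen after seeing the data, gave a share of 6.39%, an SD of 1.79 and a large to small ratio of -0.30. No paired analysis was possible because both libraries belong to 1 group.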

Other observations

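Other letters in the start windows also differed in share. The sequence CCGGAAG, the core of sites for ETS factors, occurred on either strand in 36.0% of 75 member windows, in 8.86% of all 32851 windows and in 12.0% of those of protein-coding genes. It was in 41.4% of the small subunit windows, 32.6% of the large subunit windows and 33.8% of the mitochondrial ribosomal protein windows. The letters TATAAA occurred in 9.33% of member windows and 13.6% of all windows. The letters GGGCGG occurred in 60.0% of member windows, 48.1% of windows of protein-coding genes and 35.7% of all windows. A gene can have several overlapping windows, and a match is a description of letters and not of a binding site.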
